A study of Mus musculus with 10 samples.

Results

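The 10 genes described here belong to the circadian clock: Arntl, Npas2, Nfil3, Dbp, Tef, Hlf, Per1, Per2, Per3 and Nr1d2. They were found by gene name among the 35006 gene names of the count tables, and all 10 passed the filter on low counts. They were selected on their measured values, because an earlier look at these same libraries had shown them to differ between the libraries numbered replicate 1 and those numbered replicate 2. The difference between the replicate numbers is therefore given as a description and carries no test. RNA-seq was performed on sorted epithelial cells of mouse small intestinal crypts, in 10 libraries from 5 populations with 2 replicates each. The mice were EF1a-OSCAR animals of strain C57BL6/J. OSCAR is a reporter whose ratio of a yellow to a red fluorescent protein is high where phosphorylation of RNA polymerase II is low. It was knocked in at Rosa26 under the EF1a promoter, and a stop cassette had been removed with Vasa-Cre, so that all populations carried the same alleles and the reporter could be expressed in every cell type. P1 was OSCARlow EF1alow, P2 was OSCARhigh EF1alow, P3 was OSCARlow EF1ahigh, P4 was OSCARmed EF1alow and P5 was OSCARmed EF1ahigh, and every library came from 10000 live EpCAM-positive cells. The study calls the replicates biological, and the sex-linked genes described below differed between replicate 1 and replicate 2 in every population, so libraries of different numbers did not come from the same animal. Age, sex and the time of day of collection are not given in the sources used here.

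The clock is a feedback loop of transcription factors that runs in nearly every cell, including the intestinal epithelium. BMAL1 (the product of Arntl), paired with CLOCK or its relative NPAS2, binds E-box elements and drives transcription of the Per genes, whose products repress that pair. The same pair drives the nuclear receptors of the REV-ERB group (Nr1d1 and Nr1d2), which repress Arntl, Npas2 and Nfil3, and the PAR bZIP factors DBP, TEF and HLF, which activate genes through D-box elements that NFIL3 represses. In tissues with a running clock, Arntl, Npas2 and Nfil3 therefore peak at another time of day than the Dbp, Per and Nr1d2 transcripts.

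The 3 elements of this loop were looked up in the promoter sequences of the members, to show where the letters lie. RefSeq promoter windows of GRCm38.p6, each of 300 bases, were found for 9 of the 10 genes, in 12 windows. The letters searched on both strands were CACGTG for the E-box, TTANGTAA for the D-box and AGGTCA for the monomer site bound by REV-ERB and ROR receptors. Of the 12 windows, 3 held the E-box, both windows of Tef and a window of Per1, and 7.15% of all 32851 windows did. A D-box was found in 1 window, that of Per3, and in 2.32% of all windows. The AGGTCA site was found in 4 windows, of Arntl, Nfil3, Per1 and Nr1d2, and in 16.3% of all windows. Such matches are descriptions of the letters and not binding sites. Each sequence below is written 5′ to 3′ on the strand of its gene, with the element in capitals.
Per3, chr4:151044846-151044887, minus strand: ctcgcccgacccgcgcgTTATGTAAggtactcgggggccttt
Per3, chr4:151044799-151044840, minus strand: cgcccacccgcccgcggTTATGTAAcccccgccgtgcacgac
Tef, chr15:81802529-81802568, plus strand: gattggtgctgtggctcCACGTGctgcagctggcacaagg
Tef, second start site, chr15:81811259-81811298, plus strand: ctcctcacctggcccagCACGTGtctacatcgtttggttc
Per1, chr11:69098766-69098805, plus strand: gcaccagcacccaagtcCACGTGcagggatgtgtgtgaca
Arntl, chr7:113207525-113207560, plus strand: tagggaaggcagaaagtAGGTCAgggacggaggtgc
Nfil3, chr13:52981029-52981068, minus strand: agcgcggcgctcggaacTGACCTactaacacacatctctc
Nr1d2, chr14:18239161-18239200, minus strand: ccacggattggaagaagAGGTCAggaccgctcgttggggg
The capitals of Nfil3 are this site read on the opposite strand. The 2 D-boxes of Per3 begin at positions -205 and -158 from its start site.

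Library totals on genes ran from 3857612 to 6485823 reads. Values are CPM (counts scaled to a common library size) after scaling with edgeR's TMM factors, and 3 counts, taken as the smallest detectable level, stood for 0.298 to 1.59 CPM. This level and all counting intervals cover counting error only. The mitochondrial share of the counts was 58.6% and 35.5% in both P3 libraries, as labelled, and ranged from 1.02% to 4.99% elsewhere. The Paneth markers summed to 592390 and 425670 CPM in the libraries labelled P2 and to at most 66227 CPM elsewhere, whereas the study places the secretory cells in gate P3. Both names are used here as labelled, and no library was renamed. Enterocyte markers summed to 56563 and 44854 CPM in P1, and cycling genes were lowest in the libraries labelled P2. The T cell markers, of cells that the EpCAM gate should remove, summed to 1326 and 378 CPM in P1, to 238 CPM in replicate 1 labelled P3 and to at most 23.2 CPM in the other 7.

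The first question was how the 10 genes stood in the 2 replicates. The 7 output and repressor genes (Dbp, Tef, Hlf, Per1, Per2, Per3 and Nr1d2) were lower in replicate 2 in 5 of 5 populations, which 4.12% of the 13706 genes tested also were. Arntl, Npas2 and Nfil3 were higher in replicate 2 in 5 of 5 populations, as were 7.73% of all genes tested. Nothing is read from these shares, since the genes were chosen on this difference. Averaged over the 5 populations, the log2 difference (replicate 2 minus replicate 1) lay between -4.27 and -1.17 in the first group and between 0.93 and 2.37 in the second, while its median over all genes was 0.05 with an SD of 0.50.

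Dbp, the PAR bZIP factor best known as a clock output, lies on chromosome 7 of NCBIM37 (mm9) from 52960458 to 52965525. Its level in replicate 1 was 209.7 CPM in P1, 13.7 in P2, 45.7 in P3, 31.8 in P4 and 61.2 in P5. In replicate 2 it was 22.2, 2.90, 0.67, 0.89 and 0.85 CPM in the same order. Within every population the replicate 1 library was the higher one, and the groups overlapped because P1 of replicate 2 lay above P2 of replicate 1. The mean log2 difference was -4.27 ± 1.55 (SD over 5 populations), the largest in size among the 10 genes and the 12th of 13706. In P5 the counts were 534 and 8, a 72.2-fold difference with a 95% counting interval of -7.39 to -5.19 for the log2 ratio. An exon of Sphk2 on the opposite strand overlaps Dbp, and the reads were counted without strand. Sphk2 itself lay between 70.1 and 149 CPM in all 10 libraries.

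Tef, a second PAR bZIP factor (chromosome 15, 81632851 to 81657291), stood at 295 CPM in P1, 86.6 in P2, 122 in P3, 114 in P4 and 126 in P5 of replicate 1. In replicate 2 it stood at 86.1, 35.5, 15.5, 12.3 and 15.3 CPM. All 5 libraries of replicate 1 lay above those of replicate 2, although P2 of replicate 1 and P1 of replicate 2 nearly met. The mean log2 difference was -2.44 ± 0.85 (SD over 5 populations). Gm17597 overlaps it on the opposite strand and held 1 count in all libraries together.

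Hlf, the third factor of this family (chromosome 11, 90197849 to 90252231), reached 32.2 CPM in P1, 1.22 in P2, 19.1 in P3, 14.7 in P4 and 16.96 in P5 of replicate 1, against 5.69, 0.67, 0.22, 1.09 and 1.06 CPM in replicate 2. Its counts were low in several libraries. The libraries labelled P2 held 4 and 3 counts, so that no difference was detectable there (log2 ratio -3.64 to 1.70, 95% counting interval). In P3 the counts were 36 and 1, with an interval of -11.8 to -3.86. The mean log2 difference was -3.06 ± 1.67 (SD over 5 populations).

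Per1, Per2 and Per3 encode the PERIOD repressors. Per1 (chromosome 11, 68908719 to 68923462) stood at 43.0, 34.7, 31.9, 30.2 and 36.2 CPM in P1 to P5 of replicate 1 and at 6.86, 29.2, 4.66, 11.6 and 9.002 CPM in replicate 2. The libraries labelled P2 thus held nearly the same level, and the counting interval of their log2 ratio, -0.62 to 0.12, included 0. Per2 (chromosome 1, 93312561 to 93355907) stood at 34.2, 37.2, 33.4, 50.7 and 55.4 CPM in replicate 1 and at 8.36, 18.3, 4.44, 10.1 and 9.21 CPM in replicate 2. Per3 (chromosome 4, 150377761 to 150418774), whose promoter holds the 2 D-boxes printed above, stood at 23.7, 59.1, 29.7, 57.0 and 49.8 CPM in replicate 1 and at 2.17, 14.7, 5.55, 6.35 and 3.92 CPM in replicate 2. For each of the 3 genes, the 5 libraries of replicate 1 all lay above the 5 of replicate 2. Their mean log2 differences were -1.77 ± 1.01, -2.13 ± 0.70 and -2.86 ± 0.66 (SD over 5 populations).

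Nr1d2, which encodes REV-ERB beta (chromosome 14, 19036568 to 19071641), had the smallest difference among the genes lower in replicate 2. Its levels were 226, 118, 70.1, 81.6 and 85.8 CPM in P1 to P5 of replicate 1 and 99.4, 67.6, 26.9, 38.0 and 32.4 CPM in replicate 2. The groups overlapped through P1 of replicate 2, although each population was lower in replicate 2. The mean log2 difference was -1.17 ± 0.24 (SD over 5 populations) and ranged from -1.40 to -0.80.

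Arntl (chromosome 7, 120350979 to 120457636) stood at 11.9, 3.35, 11.1, 7.86 and 7.33 CPM in P1 to P5 of replicate 1 and at 61.9, 29.2, 43.1, 37.3 and 39.3 CPM in replicate 2. Every library of replicate 2 lay above every library of replicate 1. The mean log2 difference was 2.37 ± 0.40 (SD over 5 populations), a 5.17-fold difference. Of the 10 genes it was the one with the largest share of its variation between replicates.

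Npas2 (chromosome 1, 39250576 to 39420079), whose product can take the place of CLOCK, stood at 46.1, 27.4, 9.03, 9.71 and 10.9 CPM in replicate 1 and at 107, 49.96, 13.8, 20.7 and 21.0 CPM in replicate 2. Its order of populations (P1, P2, P5, P4, P3) was the same in both replicates, and its mean log2 difference of 0.93 ± 0.23 (SD over 5 populations) was the smallest of the 10. Nfil3 (chromosome 13, 53062578 to 53076442), the repressor at D-boxes, stood at 4.405, 3.96, 1.06, 4.91 and 5.39 CPM in replicate 1 and at 17.9, 7.14, 15.3, 12.2 and 9.74 CPM in replicate 2. The 2 groups of Nfil3 did not overlap, but P3 of replicate 1 held only 2 counts. Its mean log2 difference was 1.66 ± 1.13 (SD over 5 populations), and in the libraries labelled P2 the counting interval, -0.12 to 1.90, included 0.

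**Figure D1:**
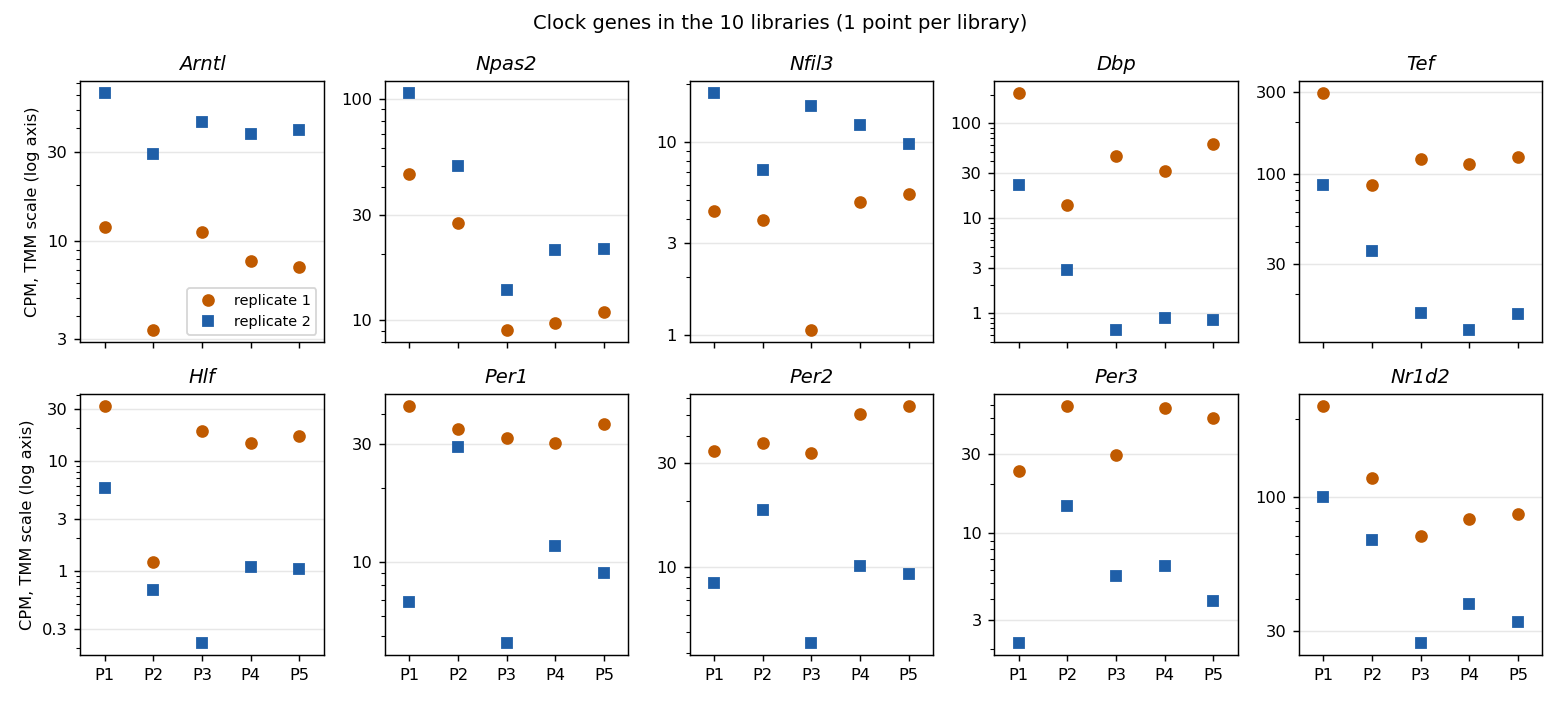
Level of each of the 10 clock genes in CPM on the TMM scale (log axis, its range set per gene) in populations P1 to P5, 1 point per library, circles for replicate 1 and squares for replicate 2. Squares lie above circles in all 5 populations for Arntl, Npas2 and Nfil3 and below them for the other 7 genes.

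Thus 6 of the 10 genes had replicate groups without overlap, against 0.606% of all genes tested. Tef, Per1, Per2 and Per3 were higher in replicate 1 (0.241% of all genes) and Arntl and Nfil3 were higher in replicate 2 (0.365% of all genes). Nothing is read from these shares either, since the genes were chosen on the replicate difference. Leaving out P1 replicate 2, the library through which most overlaps arose, gave 9 genes without overlap, and leaving out any other single library gave 5 to 8. The difference between the mean log2 CPM of the 7 output and repressor genes and that of Arntl, Npas2 and Nfil3 was 1.94 to 3.01 in the 5 libraries of replicate 1 and -2.27 to -0.77 in those of replicate 2. The value closest to 0, -0.77, belonged to P2 of replicate 2. In 8 of the 10 genes the replicate difference was smallest in the libraries labelled P2, the exceptions being Arntl and Npas2, where it was smallest in P3. For Arntl the difference was largest in P2 (log2 3.01), and Hlf, among the 8, held only 4 and 3 counts there. Among 333 other genes that differed by over 1 (log2) in a constant direction, 35.7% had their smallest difference in P2.

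**Figure D2:**
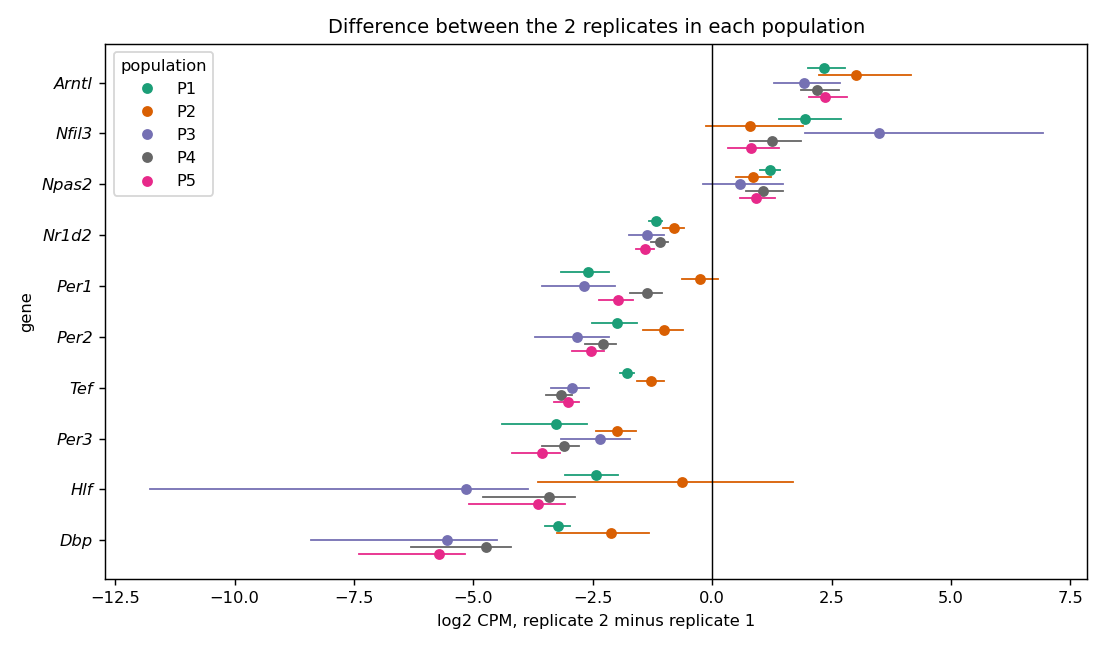
Difference in log2 CPM between replicate 2 and replicate 1 (horizontal axis) for each gene (vertical axis), with 1 point per population and lines for the 95% counting interval of the log2 ratio. Points lie on a single side of 0 for every gene, from -5.72 (Dbp in P5) to 3.50 (Nfil3 in P3), and those of P2 are nearest to 0 in 8 of 10 genes.

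The variation of each gene over the 10 libraries was split into a part between replicates, a part between populations and a remainder. The 10 genes were chosen on the replicate difference, so nothing is read from how their parts stood beside those of all genes. The replicate part had a median of 66.9% over the 10 genes and 2.59% over all genes tested, and the population part 21.0% and 82.7%. The replicate part was over 50% in 8 of the 10 genes and in 1.21% of all genes. It was 84.8% for Arntl, 82.5% for Per2 and 80.3% for Per3. Nr1d2 with 44.7% and Npas2 with 18.0% were the exceptions, and 81.1% of the variation of Npas2 lay between populations.

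Other genes differed between the replicate numbers as well. By a fixed rule, the non-member genes without overlap and with the largest mean differences were Xist, Rps13-ps1, Gm766, Zbtb16 and Fkbp5, higher in replicate 1, and Eif2s3y, Kdm5d, Ddx3y, Uty and Nos2, higher in replicate 2. Xist, transcribed from the inactive X chromosome, was at 160 to 1374 CPM in the 5 libraries of replicate 1 and at 0.17 to 1.29 CPM in those of replicate 2. Eif2s3y, a Y-linked gene, was at 0 to 0.23 CPM in replicate 1 and at 43.2 to 62.1 CPM in replicate 2. Kdm5d, Ddx3y and Uty, also Y-linked, held no counts in replicate 1 and lay at 20.9 to 53.5 CPM in replicate 2. Libraries of the same number thus shared the sex-linked pattern in all 5 populations. Fkbp5, a known target of the glucocorticoid receptor, was at 73.5 to 476 CPM in replicate 1 and at 7.69 to 23.9 CPM in replicate 2, and Zbtb16, another such target, was at 11.1 to 42.5 and 0 to 2.45 CPM. Nos2, the inducible nitric oxide synthase, was at 0 to 2.37 CPM in replicate 1 and at 3.57 to 36.8 CPM in replicate 2. The choice of the 10 genes assumed a difference in clock phase, but with no collection time given, phase, sex and any other property of the 2 collections cannot be told apart.

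**Figure D3:**
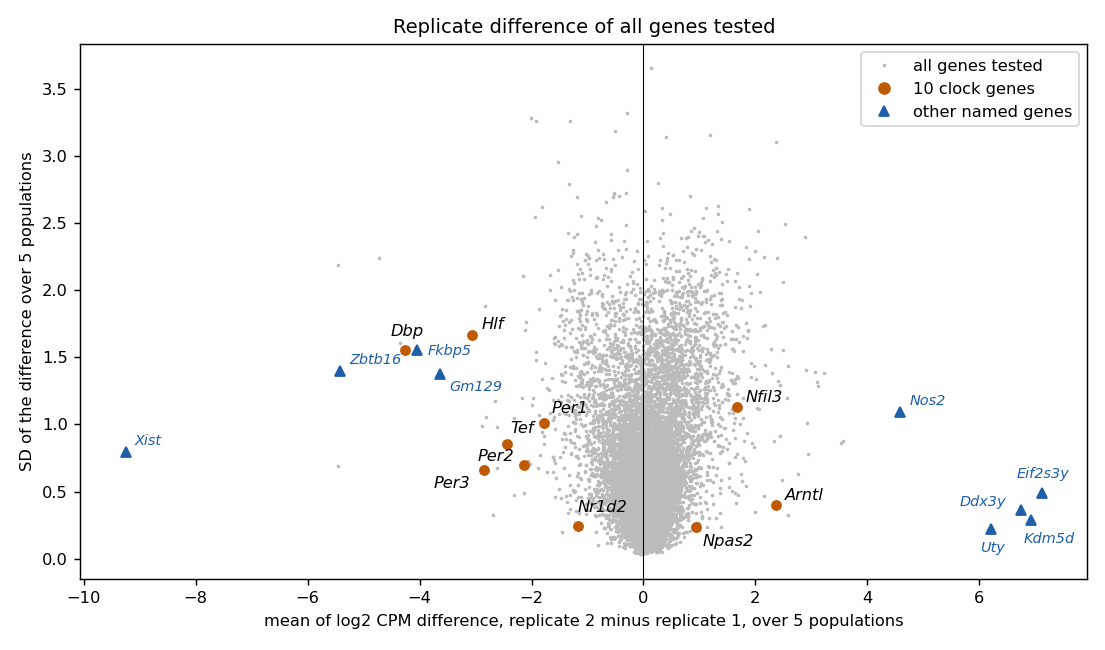
Each point is 1 of the 13706 genes tested, placed by the mean over 5 populations of its log2 CPM difference, replicate 2 minus replicate 1 (horizontal axis), and by the SD of that difference over the populations (vertical axis). The 10 clock genes (circles) lie between -4.27 (Dbp) and 2.37 (Arntl), and Xist and 4 Y-linked genes (triangles) lie at the 2 ends.

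Gene lists of other processes were counted in the same way. Of 8 glucocorticoid-induced genes tested, 2 had replicate groups without overlap, both higher in replicate 1 (0.241% of all genes tested). They were Fkbp5 and Zbtb16, already named above for the size of their replicate difference, so this count is no separate result. In 5 of 5 populations, the same 2 genes were lower in replicate 2 (4.12% of all genes tested) and 1 was higher (7.73%). Of 12 immediate early genes none had groups without overlap, and 4 were higher in replicate 2 in 5 of 5 populations. Of 7 heat shock genes none did, with 1 lower and 2 higher in 5 of 5 populations. None of the markers of stem cells (13 tested), cycling cells (15), enterocytes (15), Paneth (12), goblet (10), tuft (9) and enteroendocrine cells (14), T cells (12) or myeloid and stromal cells (5) had groups without overlap. Of these marker lists only the enterocyte list had members that were lower in replicate 2 in 5 of 5 populations, 5 of its 15. From replicate 1 to replicate 2 the sum of the enterocyte list fell from 56563 to 44854 CPM in P1 and from 33113 to 9719 CPM in P3. It fell from 14159 to 5296 CPM in P4 and from 23400 to 9658 CPM in P5, and rose from 2787 to 6427 CPM in P2. The part of this list in the replicate difference of the clock genes was not tested.

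The second question was how the clock genes differed between populations within a replicate number. The replicate number entered the fit as a block. A gene was called at an adjusted p under 0.01 (quasi-likelihood test of edgeR, Benjamini-Hochberg adjustment). Over the 5 populations together, 4 of the 10 genes were called, Npas2, Dbp, Tef and Nr1d2, against 41.7% of all genes tested. The adjusted p from edgeR was 0.00013 for Npas2, 0.00053 for Nr1d2, 0.0036 for Dbp and 0.0087 for Tef. The share called was therefore close to that of all genes. Without the block, 1 gene was called, Npas2 (adjusted p = 0.0072 from edgeR), and 2 were called without P1 replicate 1 or without P1 replicate 2. The call of Npas2 held in each of the 18 alternatives run.

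P1 and P4 were both EF1alow and differed in OSCAR, low against medium. In P4, 4 of the 10 genes were lower than in P1 and none was higher, while 28.3% of all genes tested were called. The log2 fold change was -3.48 for Dbp (SE 0.70, adjusted p = 0.0039 from edgeR), -2.31 for Npas2 (SE 0.22, adjusted p = 0.00058 from edgeR), -2.05 for Tef (SE 0.45, adjusted p = 0.0056 from edgeR) and -1.43 for Nr1d2 (SE 0.20, adjusted p = 0.0010 from edgeR). All 4 were lower in P4 in both replicates. Dbp stood at 31.8 against 209.7 CPM in replicate 1 and at 0.89 against 22.2 CPM in replicate 2. The Per genes did not pass: Per3 had a log2 fold change of 1.32 (SE 0.40, adjusted p = 0.023 from edgeR), Per2 of 0.44 (SE 0.38) and Per1 of 0.01 (SE 0.49). Over all genes tested the median log2 fold change was 0.06, and over the 10 genes it was -1.05. In these bulk samples, fewer cells of a type and less RNA per cell cannot be told apart. Several cell type markers moved with these genes. In P4, 6 of 15 enterocyte, 12 of 12 Paneth and 10 of 12 T cell markers were lower. Higher in P4 were 11 of 13 stem cell markers and 5 of 15 cycling genes. Enterocyte sums were 14159 and 5296 CPM in P4 against 56563 and 44854 CPM in P1. Paneth sums were 532 and 907 CPM in P4 against 20555 and 66227 CPM in P1, and the part of these markers was not tested. Without the block only Npas2 was called (adjusted p = 0.0087 from edgeR), and the count was 1 without either P1 library and 0 without either P4 library. Few genes of any kind were called without P4 replicate 1 (1 of 14458) or P4 replicate 2 (13 of 14498), and 966 and 994 were called without P1 replicate 1 and 2, against 3881 with all libraries. The value for Dbp was -4.42 without P1 replicate 1, -2.74 without P1 replicate 2 and -4.18 without P4 replicate 1.

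P2 (OSCARhigh, as labelled) was compared with P1 at low EF1a as well. The study reported no significant enrichment of the known cell type markers in P2, unlike these libraries. The OSCAR and EF1a states of P2 therefore rest on the label alone. The share of all genes called was 33.0%, and 5 of the 10 clock genes were called. The log2 fold change was -4.33 for Hlf (SE 0.91, adjusted p = 0.0041 from edgeR), -3.84 for Dbp (SE 0.80, adjusted p = 0.0039 from edgeR), -1.29 for Arntl (SE 0.28, adjusted p = 0.0050 from edgeR) and -0.93 for Npas2 (SE 0.21, adjusted p = 0.0061 from edgeR), all lower in P2. Per3 rose by 1.93 (SE 0.41, adjusted p = 0.0043 from edgeR), from 23.7 to 59.1 CPM in replicate 1 and from 2.17 to 14.7 CPM in replicate 2. It was the one gene of the 10 called higher in any comparison with P1. The order of Per3 was P2 over P4 as the leading populations in both replicates, with P1 lowest in both. Hlf held only 4 and 3 counts in P2, so the size of its change is uncertain. Without P2 replicate 1 the log2 fold change was -2.46 for Hlf (adjusted p = 0.11 from edgeR), -2.30 for Dbp (adjusted p = 0.068 from edgeR) and 2.59 for Per3. Without P2 replicate 2 it was -5.24 for Hlf and -4.66 for Dbp, without P1 replicate 1 it was -5.15 and -4.67, and without P1 replicate 2 it was -3.09 for Dbp. For Per3 it lay between 1.40 and 2.59 over the 18 alternatives run, and the call was kept in 14 of them. Cell type markers moved with this comparison: 12 of 15 enterocyte and 8 of 12 T cell markers were lower in P2, and 9 of 10 goblet, 9 of 14 enteroendocrine, 6 of 9 tuft and 5 of 12 Paneth markers were higher. The Paneth sums were 592390 and 425670 CPM in P2 against 20555 and 66227 CPM in P1, and the part of these markers was not tested. Without the block none of the 5 passed (adjusted p from 0.11 to 0.46 in edgeR). The count was 1 without P1 replicate 1 or P2 replicate 1, 0 without P1 replicate 2, and 3 without P4 replicate 2 or P5 replicate 2, while the count over all genes was 2068 to 2713 without either P1 library or P2 replicate 1, against 4519 with all libraries.

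Between P2 and P4, OSCAR high against medium as labelled, 1 gene was called, against 17.4% of all genes. Npas2 was higher in P2 by 1.37 (log2, SE 0.22, adjusted p = 0.0019 from edgeR), with 27.4 against 9.71 CPM in replicate 1 and 49.96 against 20.7 CPM in replicate 2. Nr1d2 had a log2 fold change of 0.69 (SE 0.20, adjusted p = 0.029 from edgeR) and Hlf of -2.65 (SE 0.94, adjusted p = 0.058 from edgeR). Npas2 was not called without the block (adjusted p = 0.091 from edgeR) or without either P4 library, when the count was 0 and 619 and 552 of all genes were called, against 2391. The Paneth markers moved with this comparison too (at most 907 CPM in P4), and their part was not tested. Without the libraries labelled P3, an alternative added after the data were seen, the counts were 4, 5 and 1 for P4 against P1, P2 against P1 and P2 against P4.

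EF1a high was compared with low, as labelled, at low OSCAR (P3 against P1) and at medium OSCAR (P5 against P4). Between P3 and P1, 2 genes were called, against 18.9% of all genes. Both were lower in P3, with a log2 fold change of -2.71 for Npas2 (SE 0.24, adjusted p = 0.0010 from edgeR) and -1.78 for Nr1d2 (SE 0.21, adjusted p = 0.0012 from edgeR). Dbp with -3.05 (SE 0.73, adjusted p = 0.011 from edgeR) and Tef with -1.86 (SE 0.45, adjusted p = 0.012 from edgeR) lay just outside the threshold and were called with DESeq2's size factors, when the count was 4. The mitochondrial share was 58.6% and 35.5% in the libraries labelled P3, and with mitochondrial genes removed the count was again 2. Without the block 1 gene was called, Npas2, and the count was 4 without either library labelled P2. Without either P1 library it was 0, as was the count over all genes. Of the marker lists, 7 cycling genes were higher in P3 and 5 Paneth and 4 T cell markers were lower, the T cell markers summing to 238 and 4.00 CPM in P3 against 1326 and 378 CPM in P1, and their part was not tested.

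Between P5 and P4 none of the 10 genes was called in edgeR's test, against 0.00730% of all genes. At an unadjusted p under 0.05 the test gave none of them, against 446 of 13706 genes, and DESeq2 called none either. The 10 log2 fold changes ranged from -0.36 (Per3) to 0.74 (Dbp), with standard errors of 0.20 to 0.67. At medium OSCAR and high EF1a against low OSCAR and high EF1a (P5 against P3) none of the 10 genes was called either, with 0.0292% of all genes called. An unadjusted p under 0.05 was reached by none (by 1779 of all genes), DESeq2 called none, and the log2 fold changes ranged from -0.30 (Arntl) to 0.83 (Per2), with standard errors of 0.21 to 0.71. P5 was thus not separated from P3 or from P4 beyond the spread for any of the 10 genes, which does not show equal levels. P3 was not tested against P4.

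The difference between the EF1a contrasts at low and at medium OSCAR was itself tested. It was called for Npas2 (-2.79 on the log2 scale, SE 0.32, adjusted p = 0.0059 from edgeR) and for Nr1d2 (-1.71, SE 0.29, adjusted p = 0.0087 from edgeR), against 4.33% of all genes. Npas2 went from 46.1 to 9.03 CPM between P1 and P3 in replicate 1 and from 107 to 13.8 CPM in replicate 2. Between P4 and P5 it stood at 9.71 and 10.9 CPM in replicate 1 and at 20.7 and 21.0 CPM in replicate 2. Neither was called without the block (adjusted p = 0.041 and 0.21 from edgeR). The count was 0 when any single library of P1, P4 or P5 was left out, when 0 to 42 of all genes were called against 593 with all libraries, and 1 without P3 replicate 2. Without the block 111 genes were called.

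**Figure D4:**
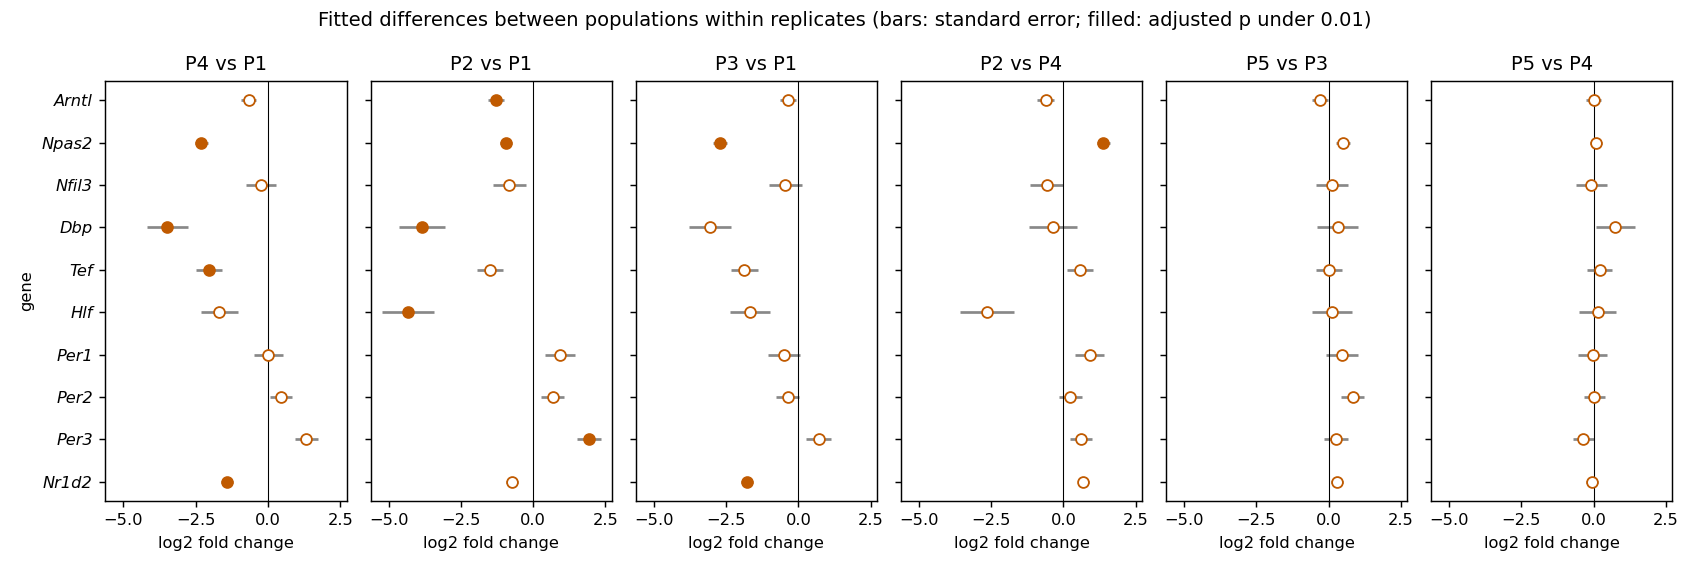
Fitted log2 fold change (horizontal axis) of each clock gene in 6 comparisons of populations, with bars for the standard error and filled points for an adjusted p under 0.01. Filled points lie on the negative side in the comparisons with P1, except Per3 in P2 against P1 (1.93), and no point is filled in P5 against P3 or P5 against P4.

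Of 23 other clock genes found in the counts, 21 passed the filter, and 10 of them were called over the 5 populations, against 41.7% of all genes tested. In P4 against P1, 10 were lower and 1 was higher, while 28.3% of all genes were called. In P3 against P1 4 were lower (18.9% of all genes called). In P2 against P1 6 were lower and 2 higher (33.0%), and in P2 against P4 2 were lower and 3 higher (17.4%). Nr1d1, which encodes REV-ERB alpha, was at 267, 91.8, 115, 70.8 and 96.6 CPM in P1 to P5 of replicate 1 and at 265, 69.1, 30.4, 33.9 and 40.1 CPM in replicate 2. It was lower in P4 than in P1 (log2 fold change -2.50, SE 0.40, adjusted p = 0.0016 from edgeR), and in P1 the replicates were level, unlike those of its relative Nr1d2. An exon of Thra overlaps Nr1d1 on the opposite strand, so its counts are uncertain. Bhlhe40, a repressor at E-boxes, was higher in P2 than in P4 by 1.64 (SE 0.28, adjusted p = 0.0024 from edgeR). Timeless rose by 2.60 (SE 0.44) between P1 and P4, Fbxl21 fell by 2.38 (SE 0.55), and Tipin and Fbxw11 were called over the 5 populations. The cycling genes also rose, from sums of 467 and 458 CPM in P1 to 1083 and 1243 CPM in P4. Timeless and Tipin were lowest in P2 in both replicates, as the cycling genes were, and the part of cycling cells was not tested. Genes on the opposite strand overlap exons of Timeless and Bhlhe40.

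The median share of variation between replicates was 4.75% over these 21 genes. Only Gm129 had replicate groups without overlap. Gm129 encodes a repressor of the BMAL1 complex and is now named Ciart. It was at 7.62, 5.49, 12.7, 4.18 and 6.88 CPM in P1 to P5 of replicate 1, and at 0, 1.12, 0, 0.40 and 0.32 CPM in replicate 2, from at most 5 counts. Its replicate share was 87.7%, above that of each of the 10 genes. Cry1, Cry2 and Clock had shares of 14.2%, 36.9% and 0.56%.

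**Figure D5:**
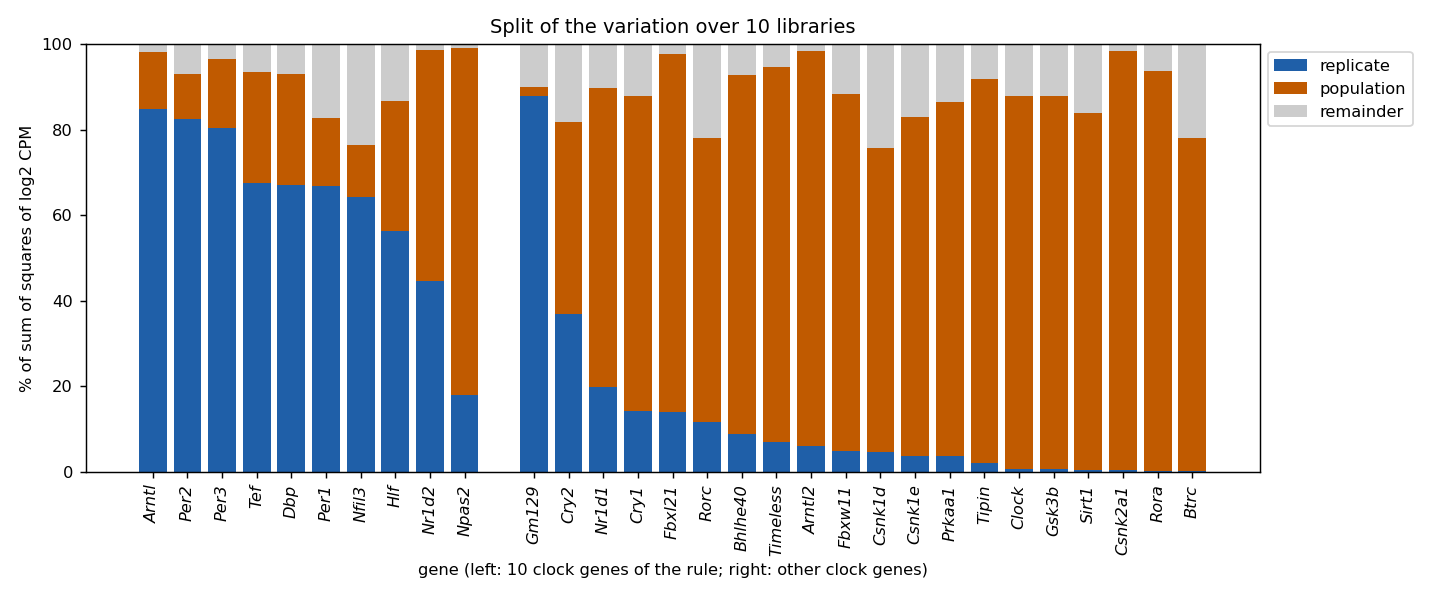
Share of the sum of squares of log2 CPM over 10 libraries (vertical axis, percent) that lay between replicates, between populations and in the remainder, for the 10 clock genes (left) and the other clock genes tested, apart from 1 that is not shown (right). The replicate part exceeds 50% in 8 of the 10 genes on the left and in Gm129 alone on the right.

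Of 12 clock-controlled genes, 5 were lower in replicate 2 in 5 of 5 populations (4.12% of all genes tested) and none was higher (7.73%). Over the 5 populations 7 were called, against 41.7% of all genes tested. Abcb1a, a drug efflux pump of the gut, was without overlap, at 158 to 515 CPM in replicate 1 and 61.7 to 135 CPM in replicate 2. Nampt, an enzyme of NAD synthesis, was at 46.3 to 186 CPM and 37.7 to 96.4 CPM, and Usp2, a deubiquitinase, was at 13.1 to 52.4 CPM and 5.80 to 26.0 CPM. Slc5a1, the intestinal glucose transporter, was lower in P2 than in P1 (log2 fold change -2.97, SE 0.44, adjusted p = 0.00080 from edgeR). It also belongs to the enterocyte list, of whose 15 genes 12 were lower in P2 than in P1. In both lists it is among the genes lower in replicate 2 in 5 of 5 populations, and the part of enterocytes was not tested. Cdkn1a, a cell cycle inhibitor, was lower in P4 than in P1 (log2 fold change -3.09, SE 0.39, adjusted p = 0.00076 from edgeR), with 0.024% of its variation between replicates. Tsc22d3, Ppara and Alas1 were the other genes called over the 5 populations.

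Likeness to Dbp and to Arntl was measured by Pearson's correlation of log2 CPM over the 10 libraries, which share replicate numbers and depth, and is given as a description. Of all genes that are not members, Cyp27a1 (r = 0.973), Epas1 (0.931), Cables1 (0.912), Nampt (0.908) and Dst (0.903) were most like Dbp. Among the members, Tef (0.988), Hlf (0.926) and Nr1d2 (0.887) were most like it. Mta2 (0.947), Nos2 (0.930), Cd74 (0.929), Eif2s3y (0.921) and Pitpnb (0.917) were most like Arntl. A correlation takes no account of size. Mta2 lay at 98.8 to 121 CPM and Pitpnb at 53.2 to 74.3 CPM over all libraries. Their mean log2 replicate differences were 0.16 and 0.27, against 2.37 for Arntl. Eif2s3y is the Y-linked gene named above, which is listed near 0 in each library of replicate 1. Per3 had the most negative correlation with Arntl among the members, at -0.956.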

How the data were processed

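The deposited values were raw counts of reads per gene. Per the labels and the study's methods, the authors sequenced poly-A-selected RNA, checked reads with FastQC 0.11.5, mapped them to mm9 with TopHat2 2.1.0 and counted them on exons with HTSeq 0.11.2 without regard to strand, so genes overlapping on opposite strands are uncertain. Rows that name no gene held 18.7% to 44.3% of all counts and were left out. For the present report, 206 rRNA gene names were removed (GENCODE annotation of NCBIM37, which held 33643 of the names), genes were filtered with filterByExpr, and 13706 were fitted with edgeR 4.0.16 (R 4.3.3; TMM, quasi-likelihood test, Benjamini-Hochberg adjustment over all genes). Standard errors were derived from the F statistics. Log2 CPM used a prior count of 2. The model held population and replicate number, with 4 residual degrees of freedom. Groups and replicate numbers came from the sample titles. The labels do not say that a number marks a shared animal or day. Between 2 populations, the correlation of the deviations that libraries with 1 number had from their means was -0.06 to 0.55 (median 0.25 over 10 pairs), so the pairing rests on the members' own rule and on the data, and values without the block are given beside the calls. The fit was tested on simulated data. Alternatives were DESeq2 1.42.0 (size factors and test), no filter, no block, a threshold of 0.05, rRNA genes kept, mitochondrial genes removed and each library left out. The 10 genes, the lists and the tests were chosen with earlier results of these data known. All members are named. Of the other clock genes and clock-controlled genes, those called over the 5 populations or without overlap between replicates are named, at most 8 a list by the size of the replicate difference, and 1 of them is not reported here. For likeness, and for the replicate difference in each direction, the 5 leading non-member genes are named. Cry1, Cry2, Clock, Sphk2, Gm17597 and Thra were named after their values were seen. Counting intervals are exact (Clopper-Pearson, 95%). Promoters came from RefSeq (GRCm38.p6), and gene positions from NCBIM37.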

Additional observations from a re-analysis of the deposited data

Results flagged for a closer look

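The difference between the EF1a contrast at low OSCAR (P3 against P1) and at medium OSCAR (P5 against P4) passed the threshold of its own test for 2 genes. For Npas2 it was -2.79 (log2, SE 0.32, adjusted p = 0.0059 in edgeR's test), and over 17 alternatives it lay between -2.94 and -2.50, with adjusted p-values of 3.9e-08 to 0.047 from edgeR or DESeq2 and the call kept in 10. For Nr1d2 it was -1.71 (SE 0.29, adjusted p = 0.0087 from edgeR), and over 17 alternatives it lay between -1.86 and -1.56, with adjusted p-values of 5.2e-06 to 0.21 from edgeR or DESeq2 and the call kept in 9. Both differences had the same sign in replicate 1 and in replicate 2. With mitochondrial genes removed, which take a high share in the libraries labelled P3, the values were -2.68 for Npas2 (adjusted p = 0.0052 from edgeR) and -1.61 for Nr1d2 (adjusted p = 0.0066 from edgeR). The label P3 conflicts with the study's account of the gates, and the part of that was not tested.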

How the results depend on the processing

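Counts of the 10 genes called depended most on the block and on single libraries, and so did those of all genes in several comparisons: without a P4 library 1 or 13 genes were called for P4 against P1, without a P1 library 0 for P3 against P1, and without the block 111 for the difference between the EF1a contrasts. Without the replicate block the counts were 1 over the 5 populations (main 4), 1 for P4 against P1 (4), 0 for P2 against P4 (1), 0 for P2 against P1 (5), 1 for P3 against P1 (2) and 0 for the difference between the EF1a contrasts (2). An adjusted p under 0.05 gave 7 over the 5 populations, 2 for P2 against P4, 4 for P3 against P1 and 4 for the difference between contrasts. DESeq2's test gave 2 for P2 against P4, 4 for P3 against P1 and 4 for the difference between contrasts. No filter on low counts gave 4 for P3 against P1 and 4 for the difference, and DESeq2's size factors gave 4 for P3 against P1. With each library left out in turn, the counts ranged from 2 to 5 over the 5 populations, 0 to 5 for P4 against P1, 0 to 1 for P2 against P4, 0 to 5 for P2 against P1, 0 to 4 for P3 against P1, 0 to 3 for the difference, and 5 to 9 for genes without overlap between replicates. The library left alone in its population was then assumed to vary like the others. The cause of these changes was not tested. P5 against P3 and P5 against P4 gave 0 under each alternative. Over 18 called results of named genes and 320 values, the call was kept in 241 and lost in 79, and no sign reversed. With 2 libraries a population and members at as few as 1 count, the least certain values are those of Hlf and Dbp in replicate 2 and of Nfil3 in replicate 1.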
